A study of Mus musculus with 26 samples.

Results

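Conventional dendritic cells (DCs) sample antigen in tissues and present it to T cells. In the mouse lung the CD11b+ subset, which carries the integrin CD11b together with CD11c, MHC class II and SIRPα, is one of the main DC populations and is known for presenting inhaled allergen. mTOR is a serine/threonine kinase that forms 2 complexes. Complex 1 senses amino acids and growth factor signals at the lysosome and promotes protein and lipid synthesis, whereas it restrains the MiT/TFE factors that drive lysosomal genes. Complex 2 acts on AKT and SGK1.

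The data described here are the RNA-seq profiles of FACS-purified CD11b+ DCs from the lungs of mice at steady state, with no house dust mite given. The members were chosen by their titles and are 6 of the 26 libraries of the series. Of these, 3 were from mice of the genotype mTOR {delta}APC, called KO below, and 3 were from wild-type littermates, called WT. For comparison, spleen CD11b+ DCs (2 KO and 2 WT libraries) and alveolar macrophages (3 KO and 3 WT libraries) of the same genotypes and at steady state were used. The labels give no Cre driver, allele, deleted exons or age, and they do not say whether the libraries of a group came from separate animals. The p-values therefore rest on the spread between libraries of the same group, which may be technical. That spread was estimated from all 26 libraries of the series and not from these 6 alone. RNA was measured in bulk, so fewer cells of a type and less RNA per cell cannot be told apart.

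The lung libraries held 9107952 to 14145027 reads assigned to genes. The number of genes with a value above 0 was 14407, 14035 and 13173 in WT replicates 1 to 3 and 13876, 13056 and 12992 in KO replicates 1 to 3. On the first principal component of the 12145 tested genes, which held 48.3% of the variance, the WT libraries lay between -56.6 and -51.5, KO replicate 1 lay at 16.8, and KO replicates 2 and 3 lay at 68.7 and 76.4. KO replicate 1 thus stood between the WT libraries and the other KO libraries. It was also the only one of the 6 with reads from Y-linked genes (summed normalized count 1318, against at most 1.61 in the others), beside an Xist value of 1450.4 against 3260.1 to 3761 in the others. Some results below are therefore also given without this library, and counts for which no such value is given can change too. KO replicates 2 and 3 were separated from each other by the second component, at -64.3 and 62.7, which held 20.0% of the variance.

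The label of the sorted cells was first compared with marker genes. All values below are the deposited normalized counts, given for replicates 1, 2 and 3 of each genotype unless stated otherwise. Itgam, which encodes CD11b, was at 5931, 5533 and 5379 in WT and at 6445, 5077 and 6230.1 in KO libraries. Sirpa was at 8546, 8720.0 and 8218 in WT and at 9088, 8212 and 11018 in KO libraries. Both genotypes thus expressed these defining genes at overlapping levels, and neither passed the test (adjusted p = 0.868 and 0.47). Of the 17 tested markers of this subset, which include both, 5 passed the test as lower in KO and none as higher, as described below. Over all tested genes 15.0% passed as lower. Single genes of other cells were as follows. Xcr1, of type 1 conventional DCs, ranged from 25.0 to 102 over the 6 libraries, and the T cell gene Cd3e from 66.1 to 147. Siglec5, the annotation's name for the alveolar macrophage gene Siglecf, ranged from 40.3 to 217. The epithelial surfactant gene Sftpc was at 2088 and 852 in WT replicates 1 and 2 and at 66.1 to 257 in the other 4 libraries, so its level followed single libraries rather than the genotype.

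Mtor itself was at 476, 364 and 397 in WT and at 297, 316 and 169 in KO libraries, with no overlap. The fitted log2 difference was -0.70 ± 0.22 (standard error, here and below), with an adjusted p of 0.0192. The call was lost without KO replicate 3 (-0.42, adjusted p = 0.149) or without WT replicate 1 (-0.59, adjusted p = 0.0829). In the same fit Mtor was lower by more in spleen CD11b+ DCs (-2.36 ± 0.27) and in alveolar macrophages (-2.02 ± 0.22), and the difference from lung CD11b+ DCs passed the test in both cases (1.66 ± 0.35, adjusted p = 0.00284 for lung minus spleen; 1.32 ± 0.31, adjusted p = 0.00416 for lung minus alveolar macrophages). The deposited value is 1 count for the gene (chr4:148448582-148557685, GRCm38, RefSeq), so reads from exons outside a deleted part would be included. How much of the KO signal is intact transcript was not tested.

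**Figure D1:**
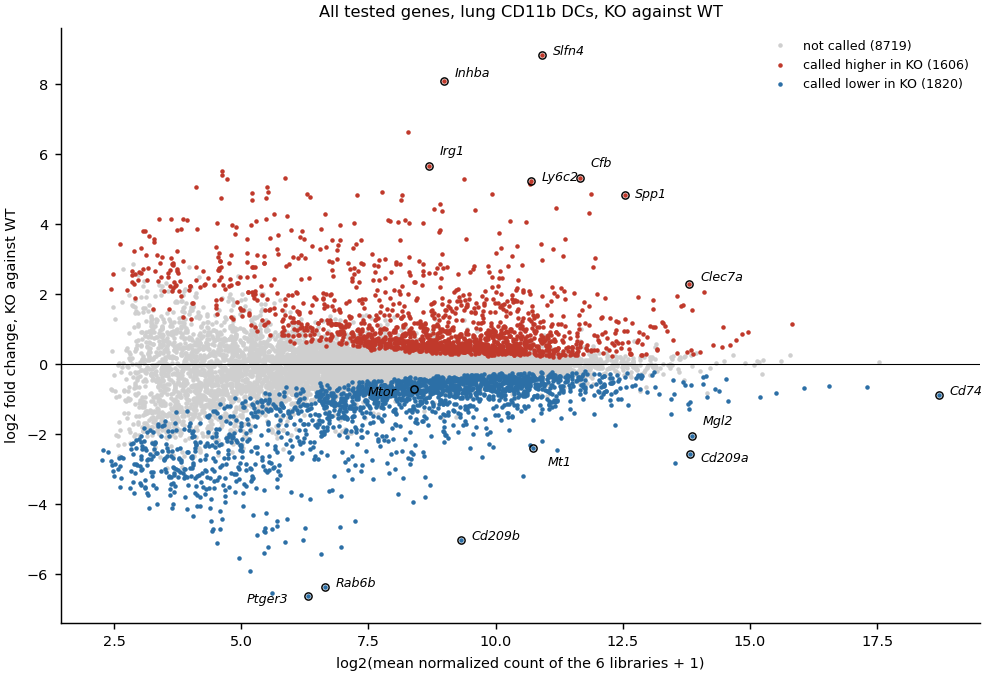
Each point is 1 of the 12145 tested genes; the horizontal axis gives the mean normalized count of the 6 lung CD11b+ DC libraries as log2(mean + 1), and the vertical axis the fitted log2 fold change of KO against WT. Red and blue points are the 1606 genes called higher and the 1820 called lower in KO, grey points were not called, and ringed points are named in the text; Slfn4 and Inhba lie highest, and Ptger3 and Rab6b lowest of those named.

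A gene was called where the adjusted p of the limma fit was under 0.05. In lung CD11b+ DCs 1606 of 12145 tested genes were called higher in KO (13.2%) and 1820 were called lower (15.0%). Of these, 649 were higher and 825 lower by at least 1 on the log2 scale. An unadjusted p under 0.05 was reached by 4783 genes. The median log2 difference over all tested genes was -0.04. These shares are the background for the counts of list members that follow.

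The largest rises included genes of innate activation, growth factors and complement. Inhba (chr13:16004256-16031609, GRCm38), which encodes the inhibin βA chain that forms activin A, was nearly absent from WT libraries at 2.17, 4.23 and 1.61 and was at 639, 1335 and 1054 in KO libraries (log2 difference 8.10 ± 0.36, adjusted p = 4.84e-13). Slfn4, a Schlafen gene of myeloid cells induced by interferon (chr11:83175172-83190216), was at 7.58, 3.17 and 15.3 in WT and 2884, 4389 and 4323 in KO (log2 difference 8.83 ± 0.76, adjusted p = 1.18e-08). Only called genes without overlap between the genotypes could enter this group and the group of falls, so the separation of their libraries is no finding. Most list members named below were chosen for a call with a small p, which favours separated libraries. Where their separation is stated, it describes the values and is no further support. Cfb, complement factor B of the alternative pathway (chr17:34856374-34862514), was at 125, 173 and 151 in WT and 4277, 5782 and 8824 in KO (log2 difference 5.33 ± 0.31, adjusted p = 7.13e-11). Spp1, which encodes the secreted phosphoprotein osteopontin (chr5:104435111-104441053), was at 333, 498 and 237 in WT and 4123, 16437 and 13972 in KO (log2 difference 4.85 ± 0.42, adjusted p = 1.22e-08). KO replicate 1 was the lowest KO library for each of these 4 genes. Irg1, now named Acod1, whose enzyme makes itaconate (chr14:103047012-103056573), was at 11.9, 29.6 and 6.45 in WT and 364, 870.1 and 1189.9 in KO (log2 difference 5.66 ± 0.63, adjusted p = 4.97e-07). Htr7, a serotonin receptor gene, was at 14.1, 45.5 and 2.42 in WT and 482, 428 and 322 in KO (log2 difference 4.92 ± 0.58, adjusted p = 1.17e-06). Nrg1, which encodes the growth factor neuregulin 1, was at 7.58, 12.7 and 0 in WT and 95.0, 184 and 162 in KO (log2 difference 4.86 ± 0.72, adjusted p = 2.47e-05). The other genes among the 15 largest rises were Ifi44, Cxcl11, Oasl1, Ly6c2, Rsad2, Gpnmb, Ifit1 and Gbp6, with log2 differences of 4.84 to 6.64. For genes near 0 in 1 genotype the size of the log2 difference depends on the pseudocount of 1.

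The 15 largest falls included several genes that were close to 0 in KO libraries. Ptger3, a prostaglandin E2 receptor gene (chr3:157566821-157644758), was at 120.3, 149 and 199 in WT and 2.91, 0 and 0 in KO (adjusted p = 1.21e-08). Rab6b, of the Golgi RAB6 family (chr9:103111667-103185276), was at 192, 164 and 231 in WT and 0.969, 5.75 and 0 in KO (adjusted p = 2.05e-07). Fzd4, a Wnt receptor gene, was at 100.75, 132 and 82.2 in WT and 28.1, 0 and 0 in KO (adjusted p = 2.63e-05). Cd209b, a lectin gene of the DC-SIGN cluster on chromosome 8 (chr8:3917655-3926841), was at 1148, 1063 and 1487 in WT and 55.2, 50.9 and 17.5 in KO (log2 difference -5.01 ± 0.53, adjusted p = 2.43e-07). Gfra2, a co-receptor gene for the growth factor neurturin, was at 593, 628 and 580.4 in WT and 140.5, 23.8 and 16.9 in KO (log2 difference -3.92 ± 0.58, adjusted p = 2.25e-05). Myo6, an unconventional myosin gene, was at 72.6, 98.3 and 118 in WT and 16.5, 1.64 and 0.675 in KO (log2 difference -4.48 ± 0.51, adjusted p = 6.97e-07). KO replicate 1 again held the intermediate values of Gfra2 and Myo6. The remaining genes of this group were Upb1, Abca6, Mamdc2, Ccdc170, Aqp3, D3Bwg0562e, Col4a2, Bhlhb9 and Mrvi1, with log2 differences of -5.41 to -3.84. Without KO replicate 2 the difference of Aqp3 was -3.07 and that of Col4a2 -2.66, and without KO replicate 3 that of Mrvi1 was -2.20.

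**Figure D2:**
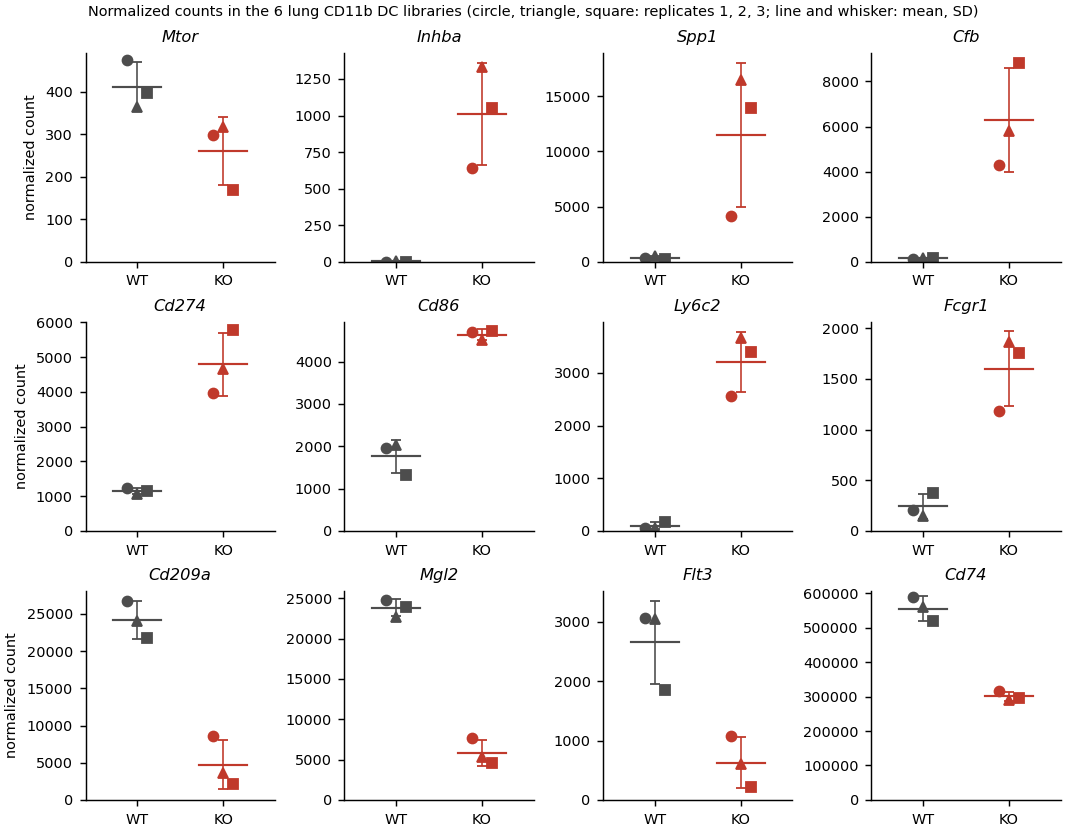
Normalized counts of 12 genes in the 6 lung CD11b+ DC libraries; each panel has a vertical axis that starts at 0, points are libraries (circle, triangle and square for replicates 1, 2 and 3), and lines with whiskers give the mean and SD of 3. The KO and WT points do not overlap in any panel; KO replicate 1 is the KO point nearest to WT in all panels but those of Mtor and Cd86.

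Gene groups were then followed through lists of known function. The largest list median was that of interferon-stimulated genes, which cells turn on after interferon binds its receptor. Of 48 tested antiviral effectors, 42 were called higher and none lower, against 13.2% and 15.0% of all tested genes. Their median log2 difference was 2.10, and it was similar in the 3 KO libraries taken singly (1.99, 2.20 and 2.16 above the WT mean). Isg15, a ubiquitin-like modifier, was at 243, 171 and 127 in WT and 1112, 1052 and 969 in KO (log2 difference 2.57 ± 0.36, adjusted p = 1.18e-05). Ifit3, which acts in the IFIT complex that binds viral RNA, was at 126, 142 and 145 in WT and 2422, 2374 and 2227 in KO (log2 difference 4.08 ± 0.34, adjusted p = 7.56e-09). Rsad2, which encodes the antiviral enzyme viperin, was at 139, 73.0 and 67.7 in WT and 2920.3, 3650.3 and 2984 in KO (log2 difference 5.15 ± 0.44, adjusted p = 1.14e-08). For these genes the 3 KO libraries were close to each other, KO replicate 1 included, and all lay far above WT. Oas1a, a 2′-5′ oligoadenylate synthetase gene, was at 323, 302 and 343 in WT and 1604, 2104 and 1713 in KO (log2 difference 2.47 ± 0.19, adjusted p = 3.08e-09). Lgals3bp, a secreted galectin-binding glycoprotein gene, was at 922, 881 and 1137 in WT and 5253, 6758 and 8235 in KO (log2 difference 2.77 ± 0.21, adjusted p = 1.98e-09). Reads of the Oas1, Ifi204 and Ifi205, Gbp, Ly6c, Slfn, Bcl2a1, Cd209 and MHC genes can be split between near-identical copies, so single members of those families are less certain.

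Guanylate-binding proteins and immunity-related GTPases, which attack membranes around intracellular pathogens, moved in the same way. Of 16 tested members, 12 were called higher and none lower, with a median of 2.03. Irgm1 was at 619.7, 609 and 726 in WT and 2269, 2762 and 2822 in KO (log2 difference 2.00 ± 0.17, adjusted p = 7.7e-09). Gbp3 was at 283, 320.4 and 267 in WT and 814, 823 and 882 in KO (log2 difference 1.53 ± 0.25, adjusted p = 6.84e-05), and Gbp7 at 319, 346 and 439 and 1411, 1776 and 2086 (log2 difference 2.25 ± 0.21, adjusted p = 5.34e-08). All 3 were separated by genotype in every library. The interferon-stimulated response element (ISRE), the DNA sequence through which interferon signalling acts on these promoters, was searched in the RefSeq promoters (GRCm38.p6) as GAAANNGAAA on both strands, from 250 bases before to 50 after the start. It was present in 3.99% of the promoters of all 27025 genes of that table. Of the tested genes, 9734 of 12145 could be matched to a promoter. The motif was found in 8.12% of those called higher (103 of 1269), in 3.67% of those called lower and in 3.28% of those not called. It was found in 19 of 37 antiviral effectors and in 9 of 10 guanylate-binding proteins and GTPases. Of other lists, it was found in 7 of 21 nucleic acid sensors and adaptors, 4 of 16 class I genes and 2 of 16 chemokines. List members were counted whether called or not, so these shares describe the lists and not the KO effect. Stretches upstream of the start are shown for 6 genes that were called higher, 5′ to 3′ on the gene's strand, with matches in capitals. These genes were picked among those that hold a match, so that they share it is no finding.
Isg15 (chr4:156200855-156200916, minus strand): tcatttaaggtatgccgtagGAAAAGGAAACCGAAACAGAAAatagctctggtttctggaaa
Ifit3 (chr19:34583353-34583436, plus strand): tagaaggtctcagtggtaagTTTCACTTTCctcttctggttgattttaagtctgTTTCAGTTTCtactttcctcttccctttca
Oas1a (chr5:120907526-120907565, minus strand): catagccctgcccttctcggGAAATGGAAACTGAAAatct
Rsad2 (chr12:26456543-26456592, minus strand): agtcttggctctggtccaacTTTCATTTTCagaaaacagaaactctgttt
Gbp3 (chr3:142559979-142560034, plus strand): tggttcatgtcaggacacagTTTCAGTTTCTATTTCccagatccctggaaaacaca
Irgm1 (chr11:48871421-48871470, minus strand): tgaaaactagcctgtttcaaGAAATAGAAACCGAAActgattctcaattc
Isg15 held 3 overlapping matches, Oas1a, Gbp3 and Irgm1 held 2 overlapping ones, Ifit3 held 2 separate ones and Rsad2 held 1. A match is a description of these letters and was not tested for binding.

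Upstream of these effectors lie the interferon signalling genes. Of 27 tested interferon receptor, STAT and IRF genes, 11 were called higher and 3 lower, with a median of 0.24, and the count of lower genes was 7 without KO replicate 1 and 1 without WT replicate 1, WT replicate 2 or KO replicate 2. Irf7, the factor that amplifies interferon production, was at 796, 850.1 and 927 in WT and 7414, 6276 and 7432 in KO (log2 difference 3.03 ± 0.27, adjusted p = 1.76e-08). Stat2, which carries the type I interferon signal to the nucleus, was at 856, 947 and 621 in WT and 2065, 2656 and 2937 in KO (log2 difference 1.67 ± 0.20, adjusted p = 1.14e-06). The KO libraries lay above all WT libraries for both factors. Ifngr1, of the interferon-γ receptor, was lower at 6333, 4487 and 4748 in KO against 8464, 7336 and 7817 in WT (log2 difference -0.62 ± 0.11, adjusted p = 0.000273), whereas its partner chain Ifngr2 was higher (log2 difference 0.85 ± 0.11, adjusted p = 4.65e-06). Ifnar2, a chain of the type I interferon receptor, rose by 0.55 ± 0.14 (adjusted p = 0.00494). Of 19 interferon genes in the table, only Ifnb1 was high enough to be tested. It was at 58.5, 50.8 and 10.5 in WT and 10.7, 16.4 and 18.2 in KO and was not called (log2 difference -1.06 ± 0.90, adjusted p = 0.406).

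Sensors of nucleic acids rose in part. Of 28 tested sensors and adaptors, 17 were called higher and 3 lower (1 lower without WT replicate 1 or KO replicate 2). Mnda, of the IFI200 family, was at 50.9, 25.4 and 41.9 in WT and 684, 924 and 925 in KO (log2 difference 4.43 ± 0.31, adjusted p = 1.13e-09). Ifih1, which encodes the double-stranded RNA sensor MDA5, was at 612, 445 and 479 in WT and 1503, 2529.9 and 2144 in KO (log2 difference 1.99 ± 0.17, adjusted p = 1.04e-08). Both were separated by genotype. Tlr3, the endosomal sensor of double-stranded RNA and a gene of type 1 DCs, went the other way, from 264, 210.4 and 289 in WT to 107, 63.2 and 173 in KO (log2 difference -1.25 ± 0.24, adjusted p = 0.000445). The signalling genes downstream of these sensors, Mavs (0.17 ± 0.18) and Irf3 (-0.10 ± 0.11), were not called.

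**Figure D3:**
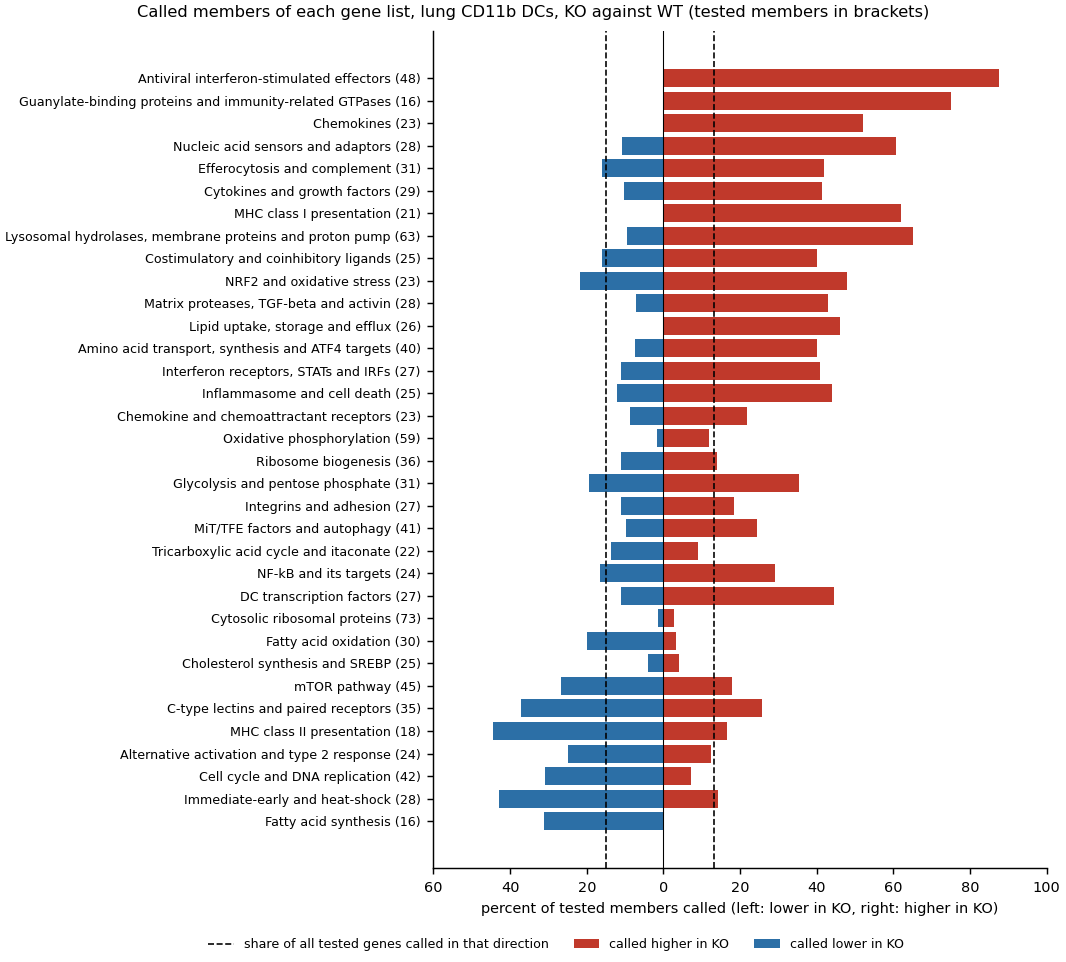
Percent of the tested members of each function list that were called higher (red, to the right) or lower (blue, to the left) in KO lung CD11b+ DCs; numbers in brackets are tested members, lists are ordered by their median log2 difference, and dashed lines mark the 13.2% and 15.0% of all tested genes called in each direction. Antiviral effectors and guanylate-binding proteins lie farthest to the right, and MHC class II and immediate-early genes farthest to the left.

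Of 23 tested chemokine genes, 12 were called higher and none lower, with a median of 1.08. Cxcl9, a ligand of CXCR3, was at 24.9, 33.8 and 70.1 in WT and 337, 347 and 856 in KO (log2 difference 3.54 ± 0.43, adjusted p = 1.62e-06). Cxcl3, a ligand of the neutrophil receptor CXCR2, was at 33.6, 34.9 and 20.2 in WT and 372, 678 and 476 in KO (log2 difference 4.06 ± 0.35, adjusted p = 1.16e-08). Ccl7, a ligand of the monocyte receptor CCR2, was at 637, 487 and 158 in WT and 1226, 4759 and 4239 in KO (log2 difference 2.99 ± 0.60, adjusted p = 0.00071), and Ccl12, another such ligand, at 149.5, 86.7 and 79.8 and 347, 655 and 955 (log2 difference 2.56 ± 0.49, adjusted p = 0.000434). KO replicate 1 was the lowest KO library for these 4 genes, and for Ccl2 it was at 2537 against 7365 and 6165 in KO replicates 2 and 3 and 2069, 1542 and 869 in WT. Ccl5, a chemokine that attracts T cells and monocytes, was at 1070.3, 858 and 953 in WT and 2745, 4019 and 3352 in KO (log2 difference 1.80 ± 0.23, adjusted p = 4.11e-06), and Ccl6 at 5825, 5405 and 6305 and 10732, 25308 and 25020.1 (log2 difference 1.70 ± 0.20, adjusted p = 9.76e-07). The mature DC chemokines Ccl17 and Ccl22 were at 2578, 2438 and 1505 and at 8531, 8085 and 5017 in WT and at 5252, 4905 and 2980.1 and at 14256, 11961 and 6854 in KO, and neither was called (adjusted p = 0.0735 and 0.0749).

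Of 29 tested cytokines and growth factors, 12 were called higher and 3 lower. Il12b, the p40 chain of interleukins 12 and 23, was at 321, 235 and 144 in WT and 952, 679 and 621 in KO (log2 difference 1.73 ± 0.39, adjusted p = 0.00195). Its partner chains were too low to test: Il23a was at most 12.6 and Il12a at most 12.8 in any of the 6 libraries. Il6 was at 147, 125 and 77.4 in WT and 84.3, 208 and 156 in KO, and Il1b at 10385, 6483 and 6018 and 9955, 11711 and 9476. Their ranges overlapped and neither was called (adjusted p = 0.71 and 0.131). Tnf (0.56 ± 0.62, adjusted p = 0.537) and Il10 (-0.17 ± 0.84, adjusted p = 0.906) were not called either. Nampt, an enzyme of NAD synthesis that is also secreted, was at 1225, 977 and 766 in WT and 2192, 2909 and 2687 in KO (log2 difference 1.41 ± 0.13, adjusted p = 5.1e-08). The lower members were Il16, a CD4 ligand (log2 difference -1.13 ± 0.15, adjusted p = 6.85e-06), Il18, an inflammasome product (log2 difference -1.21 ± 0.26, adjusted p = 0.00126), and Ebi3, a chain of interleukin 27 (log2 difference -0.88 ± 0.21, adjusted p = 0.00338). The other chain of interleukin 27, Il27, was at 33.6, 25.4 and 51.6 in WT and 41.7, 70.6 and 86.3 in KO and was not called. The shared β chain of the GM-CSF receptor, Csf2rb, was at 3817, 3435 and 3703 in WT and 6526, 7288 and 6623 in KO (log2 difference 0.90 ± 0.08, adjusted p = 4.43e-08), whereas the α chain Csf2ra was not called (0.06 ± 0.08).

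Of 23 tested chemoattractant receptors, 5 were called higher and 2 lower, and the total of 7 was 3 without WT replicate 3 or without KO replicate 2. Whichever library was left out, 1 to 3 of them were called higher. Ltb4r1, the receptor of leukotriene B4, fell from 897, 924 and 808 to 421, 371 and 233 (log2 difference -1.40 ± 0.30, adjusted p = 0.00121). Ccr7, which guides mature DCs to lymph nodes, was at 3670.3, 3692 and 2397 in WT and 5909, 5521 and 3842 in KO, and its call (log2 difference 0.65 ± 0.24, adjusted p = 0.0478) was lost without WT replicate 3 (0.44, adjusted p = 0.212) and when either KO replicate 1 (0.53, adjusted p = 0.137) or 2 (0.58, adjusted p = 0.135) was left out. Ccr2, the receptor of monocytes and their progeny, did not pass the test (-0.05 ± 0.17, adjusted p = 0.865).

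Antigen presentation changed in opposite directions for the 2 MHC classes. Of 18 tested class II genes, 8 were called lower and 3 higher, and of 21 tested class I genes, 13 were called higher and none lower. Cd74, the invariant chain that escorts class II molecules, was at 589032, 558713 and 519076 in WT and 315631, 291345 and 295024 in KO (log2 difference -0.88 ± 0.16, adjusted p = 0.000181). H2-Ab1, a class II β chain, was at 212007, 202337 and 178348 in WT and 146054, 114255 and 117289 in KO (log2 difference -0.66 ± 0.15, adjusted p = 0.00184). The α chain gene H2-Aa and the β chain gene H2-Eb1 fell by similar amounts (-0.63 ± 0.14 and -0.67 ± 0.14). In each of these 4 genes the 3 KO libraries were below all WT libraries. The genes of peptide exchange had larger log2 differences. H2-Oa, of the regulator H2-O, was at 823, 787 and 864 in WT and 292, 117 and 163 in KO (log2 difference -2.21 ± 0.30, adjusted p = 6.08e-06), and its partner H2-Ob at 2179, 1878 and 1569 and 890.4, 605 and 538 (log2 difference -1.49 ± 0.24, adjusted p = 7.28e-05). H2-DMb2, of the exchange factor H2-M, was at 2980.3, 3096 and 2684 in WT and 1728, 1318 and 971 in KO (log2 difference -1.16 ± 0.18, adjusted p = 5.4e-05). The transactivator gene Ciita, which switches on class II transcription, was at 3110.3, 3357 and 2845 in WT and 3142, 2565 and 2418 in KO and was not called (log2 difference -0.20 ± 0.16, adjusted p = 0.383). The 3 higher members of the class II list are lysosomal enzymes that process antigen and the invariant chain: Ctss (log2 difference 0.92 ± 0.15, adjusted p = 5.66e-05), Lgmn (log2 difference 1.30 ± 0.20, adjusted p = 4.69e-05) and Ifi30 (log2 difference 0.49 ± 0.13, adjusted p = 0.00781, a call lost without KO replicate 2, 0.37, adjusted p = 0.0593).

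On the class I side, B2m, the light chain, was at 13067, 13251 and 17383 in WT and 22049, 33459 and 36540.0 in KO (log2 difference 1.05 ± 0.16, adjusted p = 3.33e-05). Tap1, of the peptide transporter, was at 1737, 2367 and 1819 in WT and 4213, 4141 and 4789 in KO (log2 difference 1.16 ± 0.13, adjusted p = 7.21e-07). The immunoproteasome activator gene Psme2 was at 1711, 1632 and 1786 in WT and 2706, 2917 and 2839.8 in KO (log2 difference 0.72 ± 0.09, adjusted p = 4.11e-06). Each was higher in every KO library than in any WT library. Of the classical heavy chains, H2-K1 was called higher (log2 difference 0.48 ± 0.11, adjusted p = 0.00149) and H2-D1 was not (log2 difference 0.25 ± 0.11, adjusted p = 0.104). H2-M2, a class I gene outside the list that was named by the comparison with alveolar macrophages, fell from 783, 703 and 462 to 84.3, 126 and 128 (log2 difference -2.50 ± 0.29, adjusted p = 7.5e-07).

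Ligands that steer T cells changed in a mixed way: of 25 tested, 10 were called higher and 4 lower (1 lower without WT replicate 1, and 2 without any 1 of WT replicate 2 and KO replicates 2 and 3). Cd274, which encodes the inhibitory ligand PD-L1, was at 1234, 1063 and 1139 in WT and 3968, 4651 and 5769 in KO (log2 difference 2.05 ± 0.16, adjusted p = 4.59e-09). Pdcd1lg2, which encodes PD-L2, was at 60.7, 103 and 94.3 in WT and 360.4, 609.9 and 643 in KO (log2 difference 2.62 ± 0.40, adjusted p = 3.4e-05). Cd86, a ligand of CD28, was at 1959, 2025 and 1319 in WT and 4708, 4504 and 4716 in KO (log2 difference 1.42 ± 0.13, adjusted p = 4.43e-08). These 3 ligands, inhibitory and stimulatory, were thus all higher in each KO library. Cd40, which receives help from T cells, was at 466, 392.3 and 609 in WT and 1542, 1822 and 1550.1 in KO (log2 difference 1.76 ± 0.22, adjusted p = 2.75e-06), and Lgals9, a galectin ligand of TIM-3, at 828, 956 and 1143 and 2739, 3709 and 3034 (log2 difference 1.70 ± 0.23, adjusted p = 5.92e-06). Cd80, the other ligand of CD28, was at 698, 639.7 and 268 in WT and 892, 817 and 554 in KO and was not called (adjusted p = 0.125). Of the lower members, 4632428N05Rik, which encodes the inhibitory ligand VISTA, fell from 1916, 1732 and 2326 to 1424, 1092 and 1172 (log2 difference -0.69 ± 0.17, adjusted p = 0.00354). The calls of the other lower members, Tnfsf9, Cd48 and Cd83, were each lost when single libraries were left out, as without WT replicate 1 (log2 difference -1.06, adjusted p = 0.0858 for Tnfsf9, -0.47, adjusted p = 0.16 for Cd48 and -0.43, adjusted p = 0.263 for Cd83). For Cd48 the difference without KO replicate 2 was -0.25, adjusted p = 0.339.

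**Figure D4:**
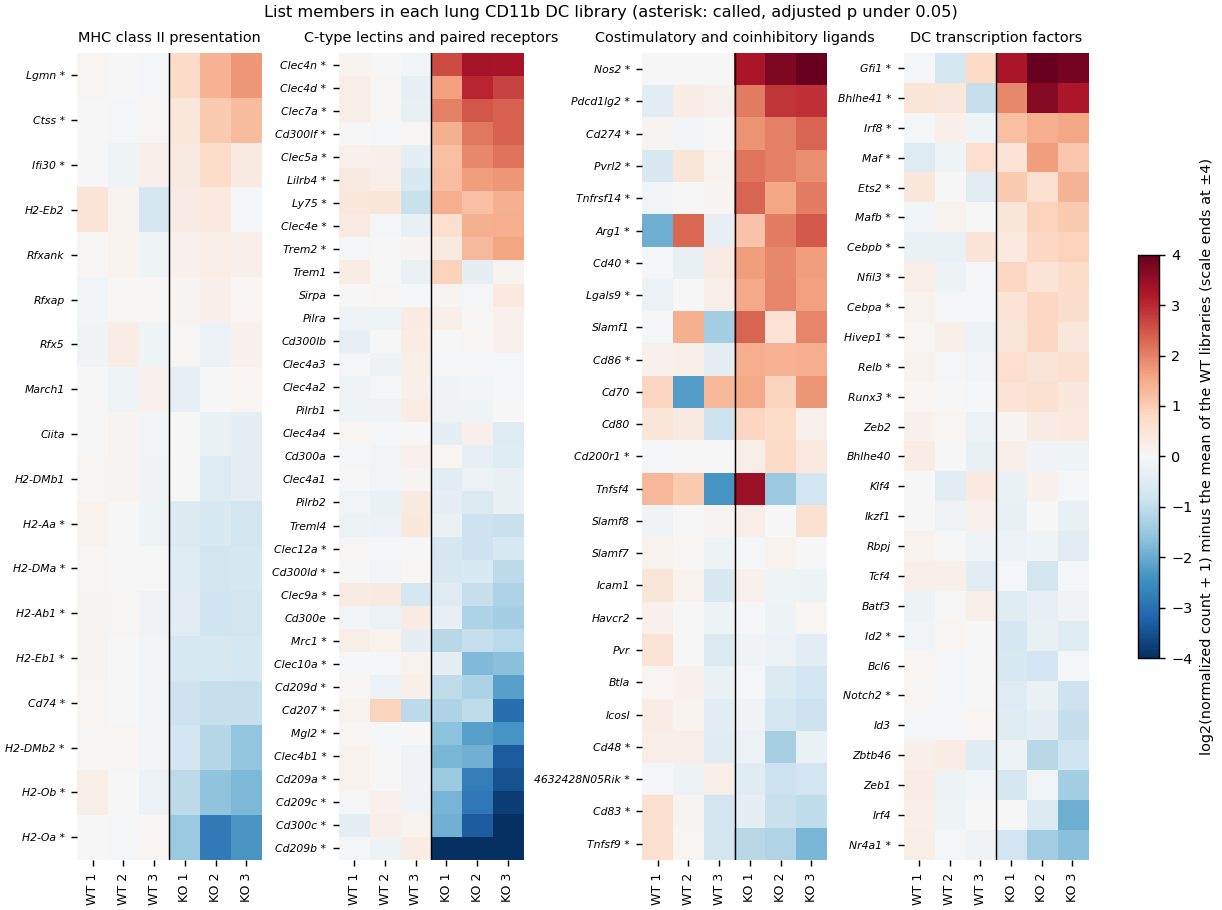
Each column is 1 of the 6 lung CD11b+ DC libraries and each row a tested member of 4 lists; colour gives log2(normalized count + 1) minus the mean of the WT libraries, on a scale that ends at -4 and 4, and an asterisk marks a called gene. Class II genes from H2-Oa to H2-Aa are blue in all KO columns, and the lectins split into a red group led by Clec4n and a blue group led by Cd209b.

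C-type lectins and paired receptors, with which DCs recognise sugars of microbes, split into opposing groups. Of 35 tested, 9 were called higher and 13 lower, the latter 8 without KO replicate 3 and 16 without KO replicate 1. Clec7a, which encodes the β-glucan receptor Dectin-1 (chr6:129461591-129472785), was at 5741, 5003 and 3970.3 in WT and 19713, 26998 and 24705 in KO (log2 difference 2.28 ± 0.14, adjusted p = 2.79e-10). Clec4n, which encodes the mannan receptor Dectin-2, was at 569.8, 521 and 484 in WT and 3219, 5296 and 5197 in KO (log2 difference 3.09 ± 0.30, adjusted p = 6.44e-08). Both signal through SYK, and all KO libraries lay well above WT. Clec5a (log2 difference 1.77 ± 0.27, adjusted p = 2.89e-05) and the paired receptors Cd300lf (log2 difference 1.96 ± 0.16, adjusted p = 6.32e-09) and Lilrb4 (log2 difference 1.55 ± 0.17, adjusted p = 5.99e-07) rose too. Among the lower members were the lectins that mark this DC subset. Cd209a, which encodes a DC-SIGN homologue (chr8:3743395-3748984), was at 26777, 24081 and 21723 in WT and 8547, 3558 and 2176 in KO (log2 difference -2.57 ± 0.37, adjusted p = 1.38e-05). Mgl2, which encodes the galactose-type lectin CD301b (chr11:70130125-70137542), was at 24794, 22740.5 and 23929 in WT and 7664, 5275 and 4639 in KO (log2 difference -2.06 ± 0.26, adjusted p = 3.74e-06). Clec4b1 was at 1803, 1604 and 1485 in WT and 457, 425 and 159.9 in KO (log2 difference -2.37 ± 0.31, adjusted p = 4.22e-06). None of these overlapped, and KO replicate 1 held the highest KO value of each. Mrc1, the mannose receptor gene, was at 3739, 3456 and 2429.7 in WT and 1459, 1652 and 1483 in KO (log2 difference -1.04 ± 0.15, adjusted p = 1.98e-05). Cd209c (-2.83), next to Cd209b and Cd209a on chromosome 8, fell as well. The call of Clec10a was lost without KO replicate 2 (-1.04, adjusted p = 0.0617) and also without KO replicate 3 (-1.08, adjusted p = 0.0525).

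Genes of complement and of the uptake of dying cells, with Fc and scavenger receptors among them, were counted together. Of 31 tested, 13 were called higher and 5 lower, and the higher count was 16 without KO replicate 1. Fcgr1, which encodes the high-affinity IgG receptor CD64 and is often used to tell monocyte-derived cells from conventional DCs, was at 206, 144 and 378 in WT and 1180.1, 1865 and 1755 in KO (log2 difference 2.80 ± 0.39, adjusted p = 1.16e-05). C3, the central complement component, was at 358, 492 and 416 in WT and 1993, 1659 and 3406 in KO (log2 difference 2.42 ± 0.39, adjusted p = 5.87e-05). Msr1, a scavenger receptor gene, was at 313, 424 and 281 in WT and 1267, 3284 and 3194 in KO (log2 difference 2.82 ± 0.48, adjusted p = 0.000116). Each was higher in all KO libraries. Pros1, a bridge between dying cells and their receptors, fell (log2 difference -0.98 ± 0.17, adjusted p = 0.000136), while Mertk, a receptor for that bridge, rose from 204, 112 and 64.5 to 334, 402 and 741 (log2 difference 2.02 ± 0.37, adjusted p = 0.000257). The complement genes C1qa and C1qb were not called (adjusted p = 0.0563 and 0.0844).

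Genes of DC identity fell in part. Of 14 tested genes shared by conventional DCs, 6 were called lower and 2 higher, and of 17 genes of the CD11b+ subset (cDC2), 5 were called lower and none higher. Flt3, the receptor of the DC growth factor FLT3 ligand, was at 3066, 3053 and 1844 in WT and 1071, 598 and 217 in KO (log2 difference -2.32 ± 0.36, adjusted p = 3.79e-05). Dpp4, which encodes CD26, was at 3506, 3269 and 2539 in WT and 1662, 1111 and 1209 in KO (log2 difference -1.23 ± 0.21, adjusted p = 0.000105). Il1rl1, the receptor of the alarmin interleukin 33, was at 1677, 1733 and 928 in WT and 418, 172 and 150.4 in KO (log2 difference -2.65 ± 0.52, adjusted p = 0.000523). All 3 were separated by genotype. Itgax, which encodes CD11c, went up from 6281, 6628 and 4873 to 13711, 12801 and 14656 (log2 difference 1.22 ± 0.11, adjusted p = 3.58e-08). The transcription factors of this lineage were at overlapping levels: Zbtb46 was at 1153, 1233 and 713 in WT and 869, 463 and 580.1 in KO (adjusted p = 0.0563), Irf4 at 1792, 1364 and 1524 and 1582, 1028 and 396 (adjusted p = 0.0601), and Klf4 at 1848, 1371 and 2406 and 1516, 2069 and 1747 (adjusted p = 0.866). For Zbtb46 and Irf4 only KO replicate 1 overlapped with WT, and KO replicates 2 and 3 lay below all WT libraries. Over all 27 tested DC transcription factors, 12 were called higher and 3 lower. Irf8, needed for type 1 DCs and also induced by interferon, was at 1159, 1356 and 1063 in WT and 2726, 3238 and 3498 in KO (log2 difference 1.40 ± 0.16, adjusted p = 8.44e-07). Relb, of mature DCs, was at 1205, 1053 and 1004 in WT and 1728, 1541 and 1638 in KO (log2 difference 0.59 ± 0.13, adjusted p = 0.00157). Notch2, a receptor that some CD11b+ DCs need, fell from 1043, 978 and 988 to 707, 826 and 569 (log2 difference -0.53 ± 0.13, adjusted p = 0.00345).

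Genes of monocytes and macrophages moved beside these falls. Ly6c2, a monocyte surface gene that interferon also induces (chr15:75108161-75112066), was at 58.5, 53.9 and 177 in WT and 2569, 3659 and 3398 in KO (log2 difference 5.25 ± 0.44, adjusted p = 9.72e-09). Vcan, which encodes the matrix proteoglycan versican and is abundant in monocytes, was at 3.25, 4.23 and 0 in WT and 57.2, 93.6 and 113 in KO (log2 difference 4.93 ± 0.75, adjusted p = 3.08e-05). Itgad, which encodes the integrin CD11d of macrophages, was at 6.50, 12.7 and 7.26 in WT and 242, 192 and 134 in KO (log2 difference 4.29 ± 0.43, adjusted p = 1.01e-07). These 3 genes were higher in every KO library. Of 22 tested monocyte markers, 7 were called higher and 1 lower, with a median log2 difference of 0.11, and their summed level was 122085, 117822 and 126946 in WT libraries, against 125625, 133722 and 148273 in KO libraries. Of 21 tested markers of tissue macrophages, 8 were called higher and 3 lower. The higher count was 5 without WT replicate 1, KO replicate 2 or KO replicate 3, and 11 without KO replicate 1. These markers summed to 45819.8, 45049.7 and 51359.6 in WT libraries, against 47541, 65647 and 81895 in KO. The sum of the 17 CD11b+ subset markers was lower in all KO libraries, at 94941, 86656 and 84333 in WT libraries, against 60475, 47030.5 and 47213 in KO. This fall came from Cd209a and Mgl2, without which the sums overlapped between the genotypes, and 12 of the 17 markers were not called. The sum of the 14 genes shared by conventional DCs overlapped too, at 33074, 33238 and 25551 in WT libraries, against 35565, 30482 and 29225 in KO. The 3 lower macrophage markers included Lyve1 (26.0, 30.7 and 80.6 in WT and 2.91, 0.821 and 0 in KO) and Cd163 (875, 867 and 557 and 85.3, 83.7 and 44.5), which mark a resident interstitial population. The monocyte and macrophage sums overlapped between the genotypes through KO replicate 1 and were highest in KO replicate 3. The part of a changed mixture of sorted cells in these results was not tested.

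Markers of alveolar macrophages went in both directions. Of 20 tested, 4 were called higher and 8 lower, and their summed level overlapped between the genotypes (10449, 10053 and 6306 in WT, 6499, 7257 and 8969 in KO). Marco, a scavenger receptor gene, fell from 55.3, 45.5 and 19.3 to 1.94, 1.64 and 3.37 (log2 difference -3.54 ± 0.48, adjusted p = 8.34e-06), and Ear1, a ribonuclease gene, from 66.1, 43.4 and 22.6 to 6.78, 0 and 9.44 (log2 difference -3.25 ± 0.74, adjusted p = 0.00207). The 4 higher members, Ctsk, Atp6v0d2, Abcg1 and Olr1, act in lysosomes or lipid handling. No tested B cell or NK cell marker was called. The eosinophil and erythroid lists had 1 tested marker each, which was not called. Among T cell markers Il7r was the 1 called of 12 tested (627, 584 and 439 in WT and 1729, 2909 and 2685 in KO, log2 difference 2.13 ± 0.29, adjusted p = 8.34e-06).

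Further marker lists held called genes as well. Of 10 tested plasmacytoid DC markers, 4 were called higher and none lower. Their summed level was 3529.5, 3435 and 3278 in WT libraries, against 5108, 4679 and 5608 in KO. Of 14 tested markers of type 1 conventional DCs, 5 were called lower and 1 higher (2 lower without WT replicate 1 and 3 without WT replicate 2). These markers summed to 15147, 15263 and 12384 in WT libraries, against 12362, 10776 and 11883 in KO. The plasmacytoid sum was thus higher in all KO libraries. Its called members include Bst2, which is also in the antiviral list. The calls of Ccr9 and Lair1 were lost when single libraries were left out. The type 1 sum was lower in all KO libraries, but KO replicate 1 (12362) was almost level with WT replicate 3 (12384). Of 15 tested genes of mature migratory DCs, 5 were called higher and 2 lower, with sums of 33417 to 66761 in WT and 40209.5 to 60836 in KO. The neutrophil list had 1 gene called higher of 8, with sums of 529 to 1036 in WT and 895 to 1606 in KO. Epithelial, endothelial and stromal markers had 3 called lower and 1 higher of 12 (1 lower without WT replicate 1 or 2, and 5 without WT replicate 3 or KO replicate 1). They summed to 1100.4 to 3670.3 in WT and 1427 to 2006 in KO. The sums of these last 3 lists overlapped between the genotypes.

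Genes of the mTOR pathway itself were also followed. Of 45 tested, 8 were called higher and 12 lower, Mtor among them. The lower count was 7 without WT replicate 2, and with the 6 libraries fitted alone 2 genes were called higher and 4 lower. Fnip2, a partner of folliculin in amino acid sensing, was at 203, 246 and 156 in WT and 474, 791 and 1075 in KO (log2 difference 1.89 ± 0.23, adjusted p = 1.58e-06). Sgk1, a kinase downstream of complex 2, was at 3922, 2986 and 2337 in WT and 4827, 8037 and 9427 in KO (log2 difference 1.25 ± 0.18, adjusted p = 2.05e-05). Pik3ip1, an inhibitor of phosphoinositide 3-kinase, was at 182, 159.7 and 120.1 in WT and 58.1, 9.03 and 31.0 in KO (log2 difference -2.52 ± 0.54, adjusted p = 0.00129). The first 2 were higher and the last lower in all KO libraries. Slc38a9, the lysosomal arginine sensor (log2 difference -0.83 ± 0.16, adjusted p = 0.000496), Tsc2, a brake on complex 1 (log2 difference -0.66 ± 0.13, adjusted p = 0.000546), Eif4ebp2, a translation repressor that complex 1 inactivates (log2 difference -0.85 ± 0.20, adjusted p = 0.00266), and Mapkap1, a subunit of complex 2 (log2 difference -0.71 ± 0.18, adjusted p = 0.00541), fell. For Mapkap1 the difference without KO replicate 3 was -0.40, adjusted p = 0.0489. Rictor, the defining subunit of complex 2, was at 499, 583 and 504 in WT and 536, 532 and 656 in KO and was not called (log2 difference 0.12 ± 0.14, adjusted p = 0.578), and neither was Rheb, the activator of complex 1 (log2 difference 0.22 ± 0.12, adjusted p = 0.162). The call of Rptor, the defining subunit of complex 1 (log2 difference -0.50 ± 0.18, adjusted p = 0.0395), was lost when single libraries were left out, with an adjusted p of up to 0.181.

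Lysosomal genes were mostly higher in KO libraries. Of 63 tested hydrolases, membrane proteins and proton pump subunits, 41 were called higher and 6 lower, with a median of 0.54. With the 6 libraries fitted alone 26 were called higher and 5 lower. The median above the WT mean was 0.34 in KO replicate 1 and 0.59 and 0.71 in KO replicates 2 and 3. Cd63, a tetraspanin of late endosomes, was at 972, 1009.8 and 882 in WT and 2521, 4370.2 and 4502 in KO (log2 difference 1.95 ± 0.19, adjusted p = 1.01e-07). Ctsd, the aspartyl protease cathepsin D, was at 4945, 4547 and 4428 in WT and 9340.2, 21630.2 and 28092 in KO (log2 difference 1.94 ± 0.26, adjusted p = 6.85e-06). Clcn7, which carries chloride into the lysosome, was at 539.5, 648 and 531 in WT and 1423, 1658 and 2546 in KO (log2 difference 1.67 ± 0.19, adjusted p = 5.67e-07). All 3 were higher in each KO library. Gla, α-galactosidase A, was at 160.3, 92.0 and 182 in WT and 358, 493 and 803 in KO (log2 difference 1.90 ± 0.25, adjusted p = 4.2e-06), and Atp6v1a, of the proton pump, at 1673, 1545 and 1204 and 2339, 2619 and 3512 (log2 difference 0.93 ± 0.16, adjusted p = 0.000114). Ctsk, cathepsin K of osteoclasts and macrophages, was at 73.7, 104 and 21.8 in WT and 202, 528 and 644 in KO (log2 difference 2.87 ± 0.46, adjusted p = 6.84e-05). The lower members were led by Arsb, arylsulfatase B, at 1129.9, 1297 and 1130.2 in WT and 361, 208 and 353 in KO (log2 difference -1.98 ± 0.16, adjusted p = 6.32e-09), and by Cst3, the secreted cathepsin inhibitor cystatin C that is abundant in DCs, at 50352, 45498 and 52196 and 26714, 28306 and 22966 (log2 difference -0.93 ± 0.09, adjusted p = 8.33e-08). The enzymes Sgsh (-1.75 ± 0.33), Gm2a (-1.07 ± 0.14) and Man2b1 (-0.77 ± 0.14) fell too.

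The CLEAR element, which MiT/TFE factors bind in promoters of lysosomal genes, was searched as TCACGTGA, which reads the same on both strands. It was present in 1.13% of all 27025 promoters, in 2.26% of those of tested genes, in 3.39% of those of genes called higher (43 of 1269) and in 1.09% of those called lower. Among lysosomal genes, called or not, 9 of 50 promoters held it, a share that describes the list and not the KO effect. The stretches of 3 genes that rose and of Mcoln1 are shown, with the element in capitals, to show the element in genes with and without a call. Mcoln1, the lysosomal calcium channel, was at 523, 627 and 499.8 in WT and 539, 603 and 797 in KO and was not called (log2 difference 0.22 ± 0.14, adjusted p = 0.27).
Ctsd (chr7:142387899-142387946, minus strand): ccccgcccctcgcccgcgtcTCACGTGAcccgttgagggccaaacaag
Gla (chrX:134601173-134601253, minus strand): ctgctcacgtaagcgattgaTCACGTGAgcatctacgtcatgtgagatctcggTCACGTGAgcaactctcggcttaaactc
Atp6v1a (chr16:44139364-44139411, minus strand): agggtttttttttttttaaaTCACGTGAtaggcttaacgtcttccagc
Mcoln1 (chr8:3500453-3500500, plus strand): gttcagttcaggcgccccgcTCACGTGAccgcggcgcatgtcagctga
Of the factors themselves, Tfec was at 11.9, 37.0 and 18.5 in WT and 64.9, 342 and 223 in KO (log2 difference 3.02 ± 0.41, adjusted p = 7.29e-06) and Mitf at 98.6, 105 and 134 and 203, 403 and 250.3 (log2 difference 1.29 ± 0.24, adjusted p = 0.000323). Tfeb was at 640.3, 760.2 and 795 in WT and 698, 430.1 and 652 in KO and was not called (log2 difference -0.33 ± 0.13, adjusted p = 0.0667). Over the 41 tested MiT/TFE and autophagy genes, 10 were called higher and 4 lower (7 lower without KO replicate 1). Optn, an autophagy receptor, was at 23.8, 20.1 and 54.0 in WT and 111, 176 and 275 in KO (log2 difference 2.52 ± 0.36, adjusted p = 1.4e-05), whereas Atg9a (log2 difference -0.72 ± 0.18, adjusted p = 0.00414) and Uvrag (log2 difference -0.57 ± 0.11, adjusted p = 0.00072), which act in autophagosome formation and maturation, fell.

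Amino acid transport and synthesis genes, many of them targets of the stress factor ATF4, rose in part: 16 of 40 tested were called higher and 3 lower, 19 in all against 11 without KO replicate 2. The lower count was 1 without WT replicate 1 or 2 and 0 without KO replicate 2. Slc3a2, the shared heavy chain of amino acid exchangers, was at 1173, 1043 and 768 in WT and 2035, 2408 and 2479.6 in KO (log2 difference 1.23 ± 0.14, adjusted p = 5.58e-07). Slc7a11, the cystine transporter, was at 276, 325 and 181 in WT and 737, 912 and 1488 in KO (log2 difference 1.98 ± 0.40, adjusted p = 0.000763). Ddit3, the stress factor CHOP, was at 91.0, 98.3 and 107 in WT and 238, 472 and 442 in KO (log2 difference 1.89 ± 0.23, adjusted p = 1.67e-06). All 3 were higher in every KO library. Asns, asparagine synthetase (log2 difference 3.44 ± 0.44, adjusted p = 3.74e-06), and the alanyl-tRNA synthetase gene Aars (log2 difference 0.92 ± 0.14, adjusted p = 2.78e-05) rose, while the glycyl-tRNA synthetase gene Gars was not called (log2 difference -0.14 ± 0.11, adjusted p = 0.371). Atf4 mRNA was at 1286, 1051 and 1348 in WT and 1274, 1592 and 1494 in KO and was not called (log2 difference 0.24 ± 0.13, adjusted p = 0.162). The amino acid response element, which ATF4 binds, was searched as TGATGNAA on both strands. It was present in 4.51% of all promoters, in 3.15% of those of genes called higher, in 3.33% of those called lower and in 2.72% of those not called, so its shares in called genes of either direction were close. It was held by 13 of 34 promoters of the list, called or not, a share that describes the list and not the KO effect. The element is shown in capitals for 2 genes that rose and for Gars, which holds it too.
Asns (chr6:7693210-7693252, minus strand): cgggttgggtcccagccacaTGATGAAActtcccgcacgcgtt
Slc7a11 (chr3:50443633-50443699, minus strand): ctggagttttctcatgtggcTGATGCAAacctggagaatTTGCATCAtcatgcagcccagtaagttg
Gars (chr6:55037951-55037998, plus strand): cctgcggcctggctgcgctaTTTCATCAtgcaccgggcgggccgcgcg

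Of the lipid lists, that of uptake, storage and efflux held only higher calls and that of fatty acid synthesis only lower ones. Of 26 tested genes of lipid uptake, storage and efflux, 12 were called higher and none lower. Olr1, a receptor of oxidised low-density lipoprotein, was at 133, 97.3 and 37.9 in WT and 528, 792 and 561 in KO (log2 difference 2.95 ± 0.37, adjusted p = 2.4e-06). Fabp5, a fatty acid carrier, was at 334, 365 and 297 in WT and 1259.6, 2406 and 2063 in KO (log2 difference 2.48 ± 0.23, adjusted p = 3.95e-08). Ch25h, the interferon-inducible enzyme that makes 25-hydroxycholesterol, was at 24.9, 40.2 and 40.3 in WT and 153, 275 and 436 in KO (log2 difference 2.91 ± 0.50, adjusted p = 0.000148). Each was higher in all KO libraries. Soat1, which esterifies cholesterol (log2 difference 1.16 ± 0.16, adjusted p = 7.01e-06), and Plin2, which coats lipid droplets (log2 difference 0.93 ± 0.16, adjusted p = 0.000186), rose too. Of 25 tested genes of cholesterol synthesis 1 was called higher and 1 lower, the latter being its regulator Srebf2 (log2 difference -0.66 ± 0.15, adjusted p = 0.0024). Of 16 tested genes of fatty acid synthesis 5 were called lower and none higher, and the lower count ran from 1 without KO replicate 3 to 8 without KO replicate 1 (3 without WT replicate 1 or KO replicate 2, and 2 without WT replicate 2). Acss2, which makes acetyl-CoA from acetate, was the member whose call held in each case (193, 248 and 143 in WT and 127, 39.4 and 55.3 in KO, log2 difference -1.53 ± 0.35, adjusted p = 0.00211).

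Glycolysis and the pentose phosphate route were mixed, with 11 of 31 tested genes called higher and 6 lower. The lower count was 3 without WT replicate 1 or KO replicate 2, and 9 without KO replicate 1. Hk3, a hexokinase of myeloid cells (log2 difference 1.15 ± 0.15, adjusted p = 6.66e-06), Pfkp, a phosphofructokinase (log2 difference 1.17 ± 0.18, adjusted p = 4.24e-05), and Gapdh (log2 difference 0.54 ± 0.09, adjusted p = 0.000126) rose. Slc2a3, the glucose transporter GLUT3, was at 900.3, 1018 and 543 in WT and 311, 239 and 100.51 in KO (log2 difference -2.01 ± 0.36, adjusted p = 0.000183). Pdk1, a kinase that inhibits pyruvate dehydrogenase (log2 difference -0.97 ± 0.16, adjusted p = 7.57e-05), and G6pdx, the entry to the pentose phosphate route (log2 difference -0.69 ± 0.09, adjusted p = 2.4e-06), fell. Of 59 tested genes of oxidative phosphorylation 7 were called higher and 1 lower (8 in all, 13 without WT replicate 3 or without KO replicate 1), with a median of 0.12. Of 73 tested cytosolic ribosomal protein genes, whose translation complex 1 controls, 2 were called higher and 1 lower (none without KO replicate 3), with a median of -0.04, close to that of all tested genes.

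Both lists of stress genes held calls in each direction. Of 23 tested NRF2 and oxidative stress genes, 11 were called higher (7 without KO replicate 3) and 5 lower. The ferritin gene Fth1 was at 38790.0, 34065 and 32491 in WT and 54710.1, 87958 and 98866 in KO (log2 difference 1.16 ± 0.15, adjusted p = 4.76e-06). The metallothionein gene Mt2, which encodes a zinc buffer, fell from 269.8, 278 and 148 to 14.5, 14.0 and 18.9 (log2 difference -3.75 ± 0.48, adjusted p = 3.58e-06), and Mt1 from 3592, 3373 and 1662 to 571, 489 and 496 (log2 difference -2.39 ± 0.22, adjusted p = 3.56e-08). Both metallothioneins were separated by genotype. Of 28 tested immediate-early and heat-shock genes, which also respond to handling of tissue, 12 were called lower and 4 higher (2 higher without WT replicate 3). Zfp36, which destabilises cytokine mRNA, was at 36636, 31342 and 29851 in WT and 16932, 14844 and 15800.5 in KO (log2 difference -1.04 ± 0.25, adjusted p = 0.00339), and Nr4a1, an orphan nuclear receptor of monocytes, at 23324, 18749 and 18001 and 11698, 7517 and 6255 (log2 difference -1.28 ± 0.25, adjusted p = 0.00058). How handling of the samples differed was not tested.

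Of 42 tested cell cycle genes, 13 were called lower and 3 higher. The total of 16 was 27 without KO replicate 1, 7 without KO replicate 2, 8 without KO replicate 3, 9 without WT replicate 1 and 10 without WT replicate 3. With the 6 libraries fitted alone 4 were called lower and 2 higher. The median above the WT mean was 0.01 in KO replicate 1 and -0.54 and -0.62 in KO replicates 2 and 3. The proliferation marker Mki67 was at 2019, 1753 and 1832 in WT and 1400.1, 847 and 1144 in KO (log2 difference -0.75 ± 0.15, adjusted p = 0.000582), while the cell cycle inhibitor gene Cdkn1a rose (log2 difference 0.69 ± 0.14, adjusted p = 0.000945). Among 25 tested genes of inflammasomes and cell death, 11 were called higher and 3 lower. With the 6 libraries fitted alone 3 were called higher and 3 lower. Mlkl, the executioner of necroptosis that interferon induces, was at 37.9, 19.0 and 8.06 in WT and 141, 185 and 324 in KO (log2 difference 3.42 ± 0.43, adjusted p = 2.75e-06). Bcl2l1, which encodes the survival protein BCL-XL, was at 304, 316 and 277 in WT and 787, 1212 and 1372 in KO (log2 difference 1.87 ± 0.15, adjusted p = 6.03e-09). Both genes were higher in every KO library. Pmaip1, which encodes the death-promoting protein NOXA, fell (log2 difference -1.005 ± 0.24, adjusted p = 0.00345).

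Of 28 tested genes of matrix proteases, TGF-β and activin, 12 were called higher and 2 lower. Mmp14, a membrane-bound metalloprotease, was at 303, 403 and 238 in WT and 2424, 3589 and 4382 in KO (log2 difference 3.45 ± 0.45, adjusted p = 5.11e-06). Mmp19 was at 72.6, 108 and 35.5 in WT and 464, 483 and 498 in KO (log2 difference 2.86 ± 0.45, adjusted p = 4.74e-05). Fn1, fibronectin, was at 2842, 4154 and 2089 in WT and 12644, 9251 and 11492 in KO (log2 difference 1.92 ± 0.52, adjusted p = 0.0074). KO libraries were above WT for these 3 genes. The receptor Acvrl1 (log2 difference -0.83 ± 0.14, adjusted p = 0.000147) and the signal transducer Smad3 (log2 difference -1.09 ± 0.29, adjusted p = 0.00608) of the TGF-β family, to which activin A belongs, fell.

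The KO effect was then compared with that in the same labelled DC type of the spleen and with that in alveolar macrophages. In both comparison groups the KO libraries carried Y-linked reads (summed normalized count 932 and 3295 in spleen, 660 to 2136 in macrophages) and the WT libraries did not (at most 2.28), so sex and genotype cannot be told apart there. The difference of the KO effect, lung minus spleen, was called for 792 genes on the higher side (6.52%) and 885 on the lower side (7.29%). This total of 1677 was 817 without spleen WT replicate 2, 1034 without spleen KO replicate 1 and 924 without spleen KO replicate 2. For lung minus alveolar macrophages the counts were 869 (7.16%) and 1293 (10.6%). The median over all tested genes was 0.0 in spleen CD11b+ DCs and 0.02 in alveolar macrophages.

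**Figure D5:**
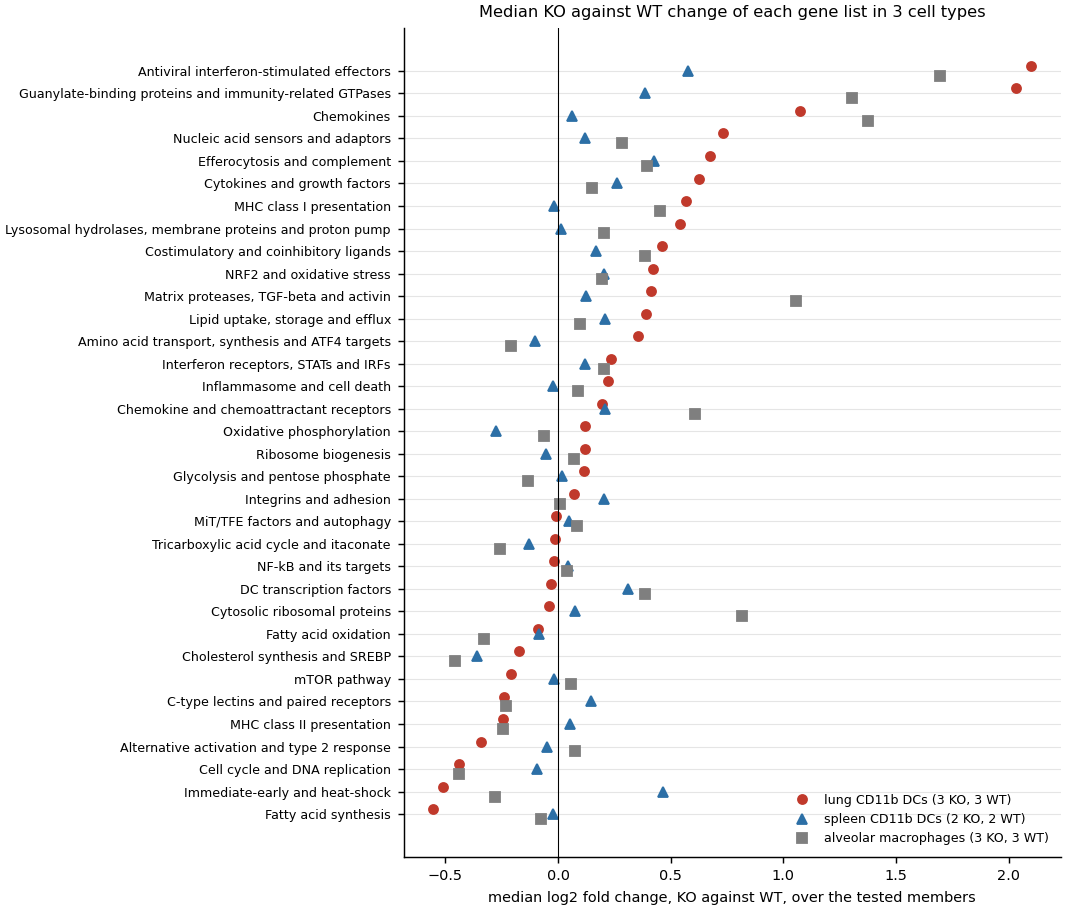
Median fitted log2 fold change of KO against WT over the tested members of each function list, in lung CD11b+ DCs, spleen CD11b+ DCs and alveolar macrophages. Antiviral effectors have medians of 2.10, 0.58 and 1.69 in that order, and cytosolic ribosomal proteins -0.04, 0.07 and 0.82.

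Of 48 antiviral effectors 31 had a higher KO effect in lung than in spleen and 1 a lower one, and the median was 0.58 in spleen. Of 63 lysosomal genes 26 had a higher and 5 a lower effect, with a median of 0.01 in spleen. The class I list had 10 of 21 on the higher side, and the class II list 7 of 18 on the lower side. For Inhba the effect was 8.10 in lung and 0.91 ± 0.44 in spleen (difference 7.20 ± 0.56, adjusted p = 9.25e-08), and for Bcl2l1 1.87 and -0.85 ± 0.19 (difference 2.72 ± 0.24, adjusted p = 4.66e-07). For Cd300lf it was 1.96 and -0.53 ± 0.20 (difference 2.49 ± 0.25, adjusted p = 2.78e-06). Metallothionein gene Mt1 moved the other way, at -2.39 in lung and 0.90 ± 0.27 in spleen (difference -3.29 ± 0.35, adjusted p = 3.24e-06). Of 28 immediate-early and heat-shock genes 10 had a lower effect in lung than in spleen and none a higher one.

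Against alveolar macrophages the interferon lists had medians closer to those of lung CD11b+ DCs. Antiviral effectors had a median of 1.69 in macrophages, with 15 of 48 effects higher and 9 lower in lung CD11b+ DCs. Ribosomal protein genes had a median of 0.82 in macrophages, and 70 of 73 had a lower effect in lung CD11b+ DCs. Amino acid and ATF4 genes had 15 of 40 on the higher side and 1 on the lower side. The neutral amino acid transporter gene Slc7a5 was at an effect of 1.53 in lung CD11b+ DCs and -1.42 ± 0.15 in macrophages (difference 2.95 ± 0.21, adjusted p = 1.18e-09), and Cfb at 5.33 and 0.50 ± 0.31 (difference 4.83 ± 0.44, adjusted p = 8.29e-08). Mmp12, macrophage elastase, rose in both cells, at 1.83 and 6.48 ± 0.17 (difference -4.65 ± 0.24, adjusted p = 7.15e-12). Tgfbi, a matrix protein gene, was at 1.66 and -0.78 ± 0.16 (difference 2.44 ± 0.23, adjusted p = 1.05e-07).

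Since KO replicate 1 lay closer to WT, each list was also counted without it. The antiviral count stayed at 42 higher and 0 lower, the guanylate-binding and GTPase count at 12 and 0, and the class II count became 3 higher and 9 lower. Lysosomal genes became 45 higher and 6 lower. Inflammasome and cell death genes became 13 higher and 3 lower, and oxidative phosphorylation genes 11 and 2. Monocyte markers became 8 higher and 3 lower, and mature migratory DC genes 4 and 3. Genes shared by conventional DCs had a median of -0.14 above the WT mean in KO replicate 1 and of -0.62 and -0.84 in KO replicates 2 and 3.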

How the data were processed

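RNA from FACS-purified cells was sequenced as bulk libraries, and a table of 26 libraries in 10 groups was deposited. Per the submitters' processing notes, STAR 2.3.1s, HTSeq and DESeq2 1.10.1 were used with mm10. The deposited values are a normalized signal: counts per gene divided by a size factor, from which whole reads were recovered for 100% of values (tolerance 1e-06). Strand use and the annotation version are not given in the sources used here.

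Genes with a normalized count of at least 10 in at least 2 of the 6 lung CD11b+ DC libraries were tested. The model was limma 3.58.1 (R 4.3.3) on log2(normalized count + 1), with 1 mean per group, an empirical Bayes variance with a trend and 16 residual degrees of freedom; all 26 libraries shared the spread. Adjusted p is Benjamini-Hochberg over all 12145 tested genes, two-sided. Differences between cell types were contrasts of the same fit. Values given for single libraries are not transformed. The steps were tested on 10 simulated data sets with 200 changed genes among 12145. There 68% of 2-fold and 92.6% of 4-fold changes were recovered, and 6.55% of the calls were unchanged genes. In the real data 3426 genes were called, so these shares may not carry over. The alternatives were other pseudocounts (0.25 and 8), filters, scalings, sample weights, edgeR 4.0.16 and DESeq2 1.42.0 on recovered reads, the compared libraries alone, and each replicate left out; 3 more, on the number of detected genes, were chosen after seeing the data.

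Named genes were the 15 largest rises and falls that did not overlap and had a mean of at least 50, up to 5 called members per list and direction with the smallest p, the 5 smallest p per direction of each difference, defining members of the lists, and Mtor, Il6, Il1b, Il12b, Il23a and Ccl17. Some further members of the lists, chosen after their values were seen, are described for their known role. The members and lists were chosen with earlier results of these data known. Gene positions and promoters are from RefSeq, GRCm38.p6, matched by symbol. The depth of 9107952 to 14145027 reads per lung CD11b+ DC library limits precision for genes of low count. Results for a few genes are not reported here.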

Additional observations from a re-analysis of the deposited data

Results flagged for a closer look

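Each gene here had a KO effect (log2, KO minus WT, limma, standard error) that differed between lung CD11b+ DCs and another cell population by the test of the difference itself; for each contrast the 5 smallest p in each direction are given.

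Against spleen CD11b+ DCs the effect of Inhba, an activin chain gene, was higher in lung by 7.20 ± 0.56 (adjusted p = 9.25e-08; 8.10 in lung and 0.91 in spleen). The survival gene Bcl2l1 differed by 2.72 ± 0.24 (adjusted p = 4.66e-07; 1.87 in lung and -0.85 in spleen). The myeloid receptor gene Cd300lf differed by 2.49 ± 0.25 (adjusted p = 2.78e-06; 1.96 in lung and -0.53 in spleen). The cytokine signalling inhibitor gene Socs2 differed by 2.83 ± 0.29 (adjusted p = 2.78e-06; 1.81 in lung and -1.02 in spleen). The nuclear body gene Sp140 differed by 1.89 ± 0.20 (adjusted p = 3.24e-06; 1.497 in lung and -0.39 in spleen). The effect was lower in lung for Fndc7, by -3.48 ± 0.32 (adjusted p = 6.46e-07; -2.51 in lung and 0.96 in spleen) and for the mRNA decay gene Zfp36l2, by -1.9997 ± 0.19 (adjusted p = 1.24e-06; -0.58 in lung and 1.42 in spleen). It was lower too for the lysosomal sulfatase gene Arsb, by -2.45 ± 0.26 (adjusted p = 3.23e-06; -1.98 in lung and 0.47 in spleen). The metallothionein gene Mt1 differed by -3.29 ± 0.35 (adjusted p = 3.24e-06; -2.39 in lung and 0.90 in spleen), and Pid1 by -1.48 ± 0.16 (adjusted p = 4.35e-06; -1.28 in lung and 0.21 in spleen).

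Against alveolar macrophages the effect was higher in lung CD11b+ DCs for the amino acid transporter gene Slc7a5, by 2.95 ± 0.21 (adjusted p = 1.18e-09; 1.53 in lung and -1.42 in macrophages) and for the complement gene Cfb, by 4.83 ± 0.44 (adjusted p = 8.29e-08; 5.33 in lung and 0.50 in macrophages). The matrix protein gene Tgfbi differed by 2.44 ± 0.23 (adjusted p = 1.05e-07; 1.66 in lung and -0.78 in macrophages). The histone chaperone gene Daxx differed by 1.70 ± 0.17 (adjusted p = 2.03e-07; 1.67 in lung and -0.04 in macrophages), and the interleukin 1 antagonist gene Il1rn by 4.27 ± 0.42 (adjusted p = 2.77e-07; 4.33 in lung and 0.07 in macrophages). The effect was lower in lung CD11b+ DCs for the bridging protein gene Mfge8, by -3.60 ± 0.18 (adjusted p = 4.9e-12; 0.49 in lung and 4.09 in macrophages) and for the elastase gene Mmp12, by -4.65 ± 0.24 (adjusted p = 7.15e-12; 1.83 in lung and 6.48 in macrophages). The class I gene H2-M2 differed by -6.67 ± 0.40 (adjusted p = 1.59e-10; -2.50 in lung and 4.17 in macrophages), the ceramidase gene Acer3 by -2.67 ± 0.17 (adjusted p = 2.39e-10; -0.29 in lung and 2.38 in macrophages), and the receptor gene Cd300a by -2.52 ± 0.16 (adjusted p = 3.73e-10; -0.24 in lung and 2.28 in macrophages). In both comparison populations Y-linked reads went with the genotype, and their part in these differences was not tested.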

How the results depend on the processing

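The 3426 genes called in lung CD11b+ DCs became 1911 with sample weights, 1371 with the 6 libraries fitted alone and 904 with only the libraries with more detected genes (WT replicates 1 and 2 and KO replicate 1); the last was chosen after seeing the data and has 1 KO library, assumed to vary like the other groups. With the other settings the count stayed within 1.5 times, and leaving out single libraries gave 2769 to 4187. Several list counts fell too with the 6 libraries alone, as to 9 higher and 2 lower for amino acid and ATF4 genes. MiT/TFE and autophagy genes fell to 5 higher and 1 lower, whereas 40 antiviral effectors were still called higher. For lung minus spleen the 1677 genes became 599 with the 10 libraries alone and 817 to 2500 with single libraries left out; where 1 spleen library was left in a genotype, it was assumed to vary like the other groups. For lung minus alveolar macrophages the 2162 genes became 1626 with the 12 libraries alone and 1693 to 2733 with single libraries left out. Of 357 called genes followed singly, 281 kept their call whichever library was left out, 345 kept it with edgeR and 349 with DESeq2; 87 lost it with the 6 libraries alone, 74 with sample weights and 182 with only the libraries with more detected genes. With only the libraries with fewer detected genes, which leave 1 WT library assumed to vary like the other groups and were chosen after seeing the data, Krt79 was at 0.036 (adjusted p = 0.978) and Pdgfra at 0.0 (adjusted p = 1.0), against lower calls in the fit of all libraries. The causes were not tested. No paired analysis was possible because the labels give the groups compared no shared replicate numbers. Depth limits what can be said of genes near a count of 0.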
